A study of Mus musculus with 14 samples.

Results

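The 12-week H3K27me3 regions linked to silent genes are the regions of the young heart list whose linked genes gave almost no RNA. A region was kept when it had at least 1 linked gene and no linked gene reached a mean of 0.5 CPM (a gene's count per 1000000 counts of its library) over 8 heart RNA libraries. By this rule 366 of the 1164 regions of the 12-week list were members (31.4%), out of 4597 regions in the 12-week and 68-week lists together. Another 303 regions of the 12-week list were linked to at least 1 expressed gene, and 495 had no linked gene. The members carried 418 links to 313 genes, and 317 of them had a single linked gene. The members were chosen by measured RNA level, so the low level of their genes is not a finding.

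The series profiled hearts of wild-type C57BL/6 male mice kept on standard chow at 12 weeks and 68 weeks of age. RNA-seq gave 4 libraries per age. CUT&RUN, in which an antibody directs a nuclease to cut out the DNA beneath it, gave 2 H3K27me3 libraries and 1 input library per age. The labels do not say whether libraries came from separate mice, and p-values rest on how far these libraries spread.

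H3K27me3, trimethylation of lysine 27 of histone H3, is written by Polycomb repressive complex 2 through its catalytic subunits Ezh1 and Ezh2. In differentiated tissue it typically covers promoters of regulators that specify other tissues, above all homeobox genes, and its removal accompanies their activation. Those promoters are commonly rich in CpG dinucleotides, which recruit Polycomb proteins. Cdkn2a, which halts the cell cycle and is a marker of senescence, is among the best known Polycomb targets.

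Promoters of 4 linked genes are shown because 2 of these genes rose with age in RNA, while Lhx2 stands for the homeobox members and Tchh for a member with few CpG. Sequences are RefSeq's on GRCm38.p6, from 250 bases before to 50 after the gene's start, on the gene's strand, with each CG in capitals. CG reads the same on both strands. Cdkn2a has a start for p19Arf and, downstream of it, a start for p16Ink4a.
Cdkn2a p19Arf start (chr4:89294570-89294869, minus strand): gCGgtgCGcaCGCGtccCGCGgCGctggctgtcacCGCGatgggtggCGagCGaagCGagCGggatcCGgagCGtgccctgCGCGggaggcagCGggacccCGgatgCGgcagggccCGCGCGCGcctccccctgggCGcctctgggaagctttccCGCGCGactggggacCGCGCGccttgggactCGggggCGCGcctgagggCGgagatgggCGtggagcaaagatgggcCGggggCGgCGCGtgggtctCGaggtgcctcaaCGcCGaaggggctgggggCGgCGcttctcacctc
Cdkn2a p16Ink4a start (chr4:89282143-89282442, minus strand): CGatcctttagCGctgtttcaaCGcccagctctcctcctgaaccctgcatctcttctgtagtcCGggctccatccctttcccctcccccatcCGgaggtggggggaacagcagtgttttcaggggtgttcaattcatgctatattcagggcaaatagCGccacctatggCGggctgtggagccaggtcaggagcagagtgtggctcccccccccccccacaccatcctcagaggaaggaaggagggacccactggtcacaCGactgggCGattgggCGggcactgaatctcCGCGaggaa
Kcnip1 upstream start (chr11:33993144-33993443, minus strand): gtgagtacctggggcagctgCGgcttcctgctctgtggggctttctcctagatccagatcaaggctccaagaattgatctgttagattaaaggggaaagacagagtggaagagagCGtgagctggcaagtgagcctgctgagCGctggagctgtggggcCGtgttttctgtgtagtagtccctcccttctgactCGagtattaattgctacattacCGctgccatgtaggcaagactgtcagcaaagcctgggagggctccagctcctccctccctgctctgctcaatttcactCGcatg
Kcnip1 middle start (chr11:33843637-33843936, minus strand): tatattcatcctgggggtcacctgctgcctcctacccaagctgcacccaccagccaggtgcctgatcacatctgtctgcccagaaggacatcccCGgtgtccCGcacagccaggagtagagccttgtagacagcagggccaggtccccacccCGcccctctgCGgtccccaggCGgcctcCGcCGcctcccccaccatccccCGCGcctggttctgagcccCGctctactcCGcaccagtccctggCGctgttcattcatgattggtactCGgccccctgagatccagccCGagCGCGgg
Kcnip1 downstream start (chr11:33680633-33680932, minus strand): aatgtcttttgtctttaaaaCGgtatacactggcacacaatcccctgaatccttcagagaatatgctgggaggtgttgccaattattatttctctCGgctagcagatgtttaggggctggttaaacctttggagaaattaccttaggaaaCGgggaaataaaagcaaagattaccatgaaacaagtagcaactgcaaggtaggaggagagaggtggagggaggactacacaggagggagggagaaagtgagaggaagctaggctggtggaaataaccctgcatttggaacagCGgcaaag
Lhx2 (chr2:38339031-38339330, plus strand): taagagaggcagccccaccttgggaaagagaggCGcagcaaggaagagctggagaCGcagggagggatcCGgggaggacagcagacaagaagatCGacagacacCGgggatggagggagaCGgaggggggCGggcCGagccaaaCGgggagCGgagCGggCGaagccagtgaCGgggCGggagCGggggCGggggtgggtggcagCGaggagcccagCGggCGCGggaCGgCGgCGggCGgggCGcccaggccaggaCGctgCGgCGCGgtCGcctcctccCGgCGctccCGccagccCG
Tchh (chr3:93442080-93442379, plus strand): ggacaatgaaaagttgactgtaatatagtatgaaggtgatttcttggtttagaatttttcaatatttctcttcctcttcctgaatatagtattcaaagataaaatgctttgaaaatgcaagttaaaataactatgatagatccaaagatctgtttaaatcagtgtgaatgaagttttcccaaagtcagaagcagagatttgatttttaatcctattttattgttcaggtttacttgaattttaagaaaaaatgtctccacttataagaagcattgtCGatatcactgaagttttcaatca

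The p19Arf start of Cdkn2a held 45 CG in 300 bases and the p16Ink4a start 12. The 3 starts of Kcnip1 held 7, 16 and 4, in the order shown. The Lhx2 sequence held 34 and the Tchh sequence 1. Lhx2 has 2 starts, and the other, not shown (chr2:38351058-38351357), held 29 and was CpG-rich by the definition that follows. CpG-rich was defined as a GC content above 50% and an observed over expected CpG ratio above 0.6. By this the p19Arf and Lhx2 sequences were CpG-rich and the others shown were not. Of the 32851 mouse promoters of the same length, 33.3% were CpG-rich. The genes shown were picked, Tchh for its few CpG, so they do not stand for the members beside that share. The table held a promoter for 181 of the 303 linked gene symbols (59.7%), so a comparison over the whole set was void and is not given. Whether the regions cover these promoters was not determined. The submitters' processing notes name mm10, yet only 11.0% of 391 member links lay on the gene's span in that build and the other links had a median gap of 108 kb. Region positions are therefore given as deposited, without a build.

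Most members were short regions of low score. The deposited score, called enrichment by the authors with no scale stated, had a median of 4.47 over the members, with quartiles of 3.88 and 5.39. Regions linked to expressed genes had a median of 4.55 and regions without a gene 4.49. The median width was 270.5 bases, from 201 to 2908, and 28 members (7.65%) were wider than 500 bases, against 21 (6.93%) of the regions linked to expressed genes. In score and width the members thus lay close to the rest of the 12-week list, and the 366 regions covered 117 kb.

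A small set stood far above that range. Of 17 regions in the 12-week list with a score over 100, 14 were members, 1 was linked to an expressed gene and 2 had no gene. No region of the 68-week list passed 100, and its regions linked to silent genes reached 26.7. Of the 14 members, 13 lay at the assembled start of chromosome 9, next to the centromere of this acrocentric chromosome, within 37 kb (chr9:3001144-3038149). Their linked genes were the predicted genes Gm10722, Gm11168, Gm10721, Gm10719, Gm10718, Gm10717, Gm17535 and Gm10715, and their scores ran from 119 to 319 with a median of 224. The highest was a Gm10722 region of 241 bases (chr9:3002016-3002256) with 319. The next were a Gm10718 region with 271 and another with 259, a Gm10719 region with 254 and a Gm10721 region with 250. A second Gm10722 region had 246, the regions of Gm11168 and Gm17535 had 224 and 214, and the higher of 2 Gm10717 regions had 197. The remaining member above 100 was linked to Gm33838 (chr9:35216590-35216824), with 262. Beyond these the highest member score was 8.94, for a region of the predicted gene Gm30093.

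The 13 regions held 59.6% of the summed score of all members, and the median score of the other 353 was 4.40. No 68-week region fell within this stretch. The lists give 1 score per region and no value for the input, so the input level there was not tested. The 8 genes together had 1, 0, 0 and 3 RNA counts in the 4 libraries at 12 weeks and 2, 10, 9 and 13 at 68 weeks. The ages overlapped in these sums, none of the 8 genes had enough counts to be tested, and gene models in repeated sequence can share reads, so these counts are uncertain.

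**Figure D1:**
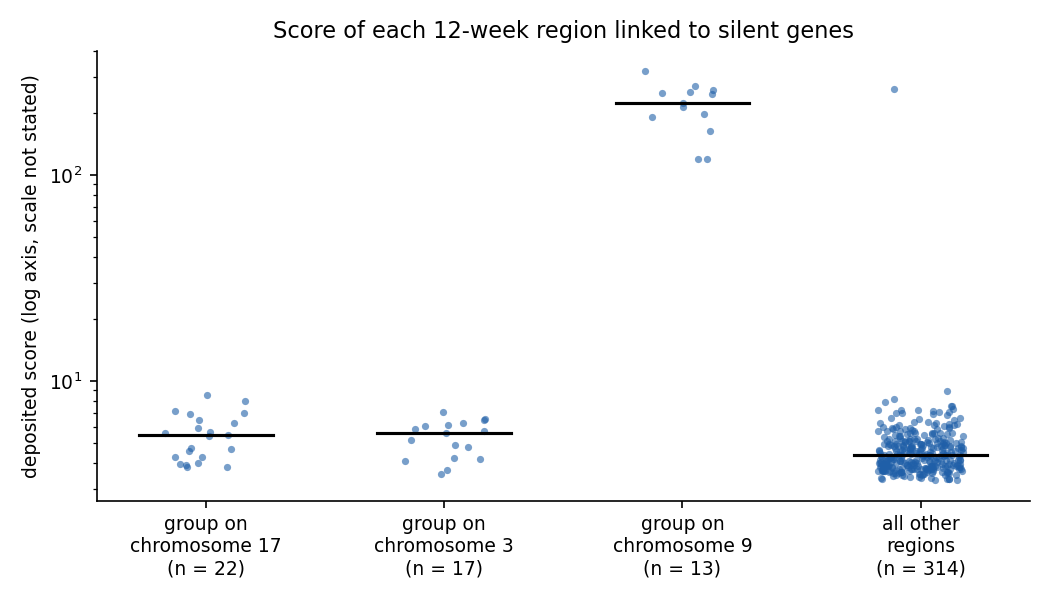
Deposited score of each member region (points, log axis) in the 3 largest groups of neighbouring regions and in all other members, with the median as a bar. The 13 regions at the start of chromosome 9 sit between 119 and 319, and 1 region elsewhere (Gm33838, 262) reaches that height.

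Many members lay in groups. Joined where no more than 50 kb separated neighbours, they formed 250 groups, of which 197 were single regions and 53 held 169 regions. The 3 largest held 52 regions (14.2%). The first lay in the major histocompatibility complex, which encodes antigen-presenting molecules (chr17:36457709-36561309), and had 22 regions with scores of 3.81 to 8.52. Among its genes, 2410017I17Rik had 12 regions, more than any other linked gene. H2-T3, a non-classical class I molecule, and Gm8909, named here after their values were seen, were also linked, and a Gm8909 region was the widest member at 2908 bases. Another 8 regions without a gene and 1 region of the 68-week list lay within the group.

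The second group lay on chromosome 3 (chr3:96341095-96376594) with 17 regions scoring 3.53 to 7.05. BC107364 had 8 of the regions and Gm10685 had 7. In the RefSeq annotation of GRCm38.p6, transfer RNA genes, which carry amino acids to the ribosome, and small nuclear RNA genes of the splicing machinery neighbour both. Within 5 kb, BC107364 had 3 transfer RNA genes and 1 small nuclear RNA gene, and so did Gm10685. Over all members, 5 linked genes with 18 regions (4.92%) had a transfer RNA gene within 5 kb. The same held for 1 region (0.33%) of those linked to expressed genes at 12 weeks and 1 (0.104%) of those linked to silent genes at 68 weeks. All but the region of Platr30 came from this 1 locus, so they are not independent.

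Smaller groups were at other gene loci. Prss16, a thymus serine protease, had 6 regions within 7.85 kb (chr13:22186053-22193899), with scores of 3.61 to 5.41. Gm28050 had 5 regions. A group in the Hoxb cluster had 4 regions linked to Hoxb9, Hoxb5 and noncoding neighbours, and a region of the cluster's noncoding gene Hoxb3os, with a score of 5.62, lay just too far from it to be joined. A group in the Hoxc cluster had 4 regions, linked to Hoxc11, Hoxc5 and Hoxc6. The chloride channel gene Best2 had 3 regions.

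Homeobox and paired-type regulators, transcription factors that set cell identity in the embryo, were 25 of the 313 genes (7.99%) with 30 regions and a median score of 4.29. They were 5.02% of the 239 genes of regions linked to expressed genes at 12 weeks and 1.5% of the 734 silent genes of the 68-week list. Of all 34357 silent genes of the count table they were 0.533%, but 69.5% of those were predicted genes or Riken clones, against 35.8% of the linked genes. The family lists were drawn up with earlier results of these data known, and no enrichment was tested. The RNA of the 25 genes summed to 1.57 to 2.18 CPM in the libraries at 12 weeks and to 1.39 to 1.96 at 68 weeks, so the ages overlapped.

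Among the homeobox genes, the highest region scores belonged to Hoxc6 and Hoxc5, positional genes of the trunk that shared a region of 578 bases scoring 6.14 (chr15:102908155-102908732). Hoxb9 followed with 5.57 and Lhx2, a regulator of forebrain and eye, with 5.54 (chr2:38248736-38249296). Hoxc6 had 0, 1, 2 and 2 counts at 12 weeks and 2, 6, 4 and 1 at 68 weeks. Hoxc5 had 3, 2, 2 and 5 counts at 12 weeks and 0, 0, 1 and 1 at 68 weeks. These libraries did not overlap for Hoxc5, but its counts were too few for the test. Lhx2 had at most 2 counts in any library. Pax8, the thyroid and kidney regulator, had no count in any of the 8 libraries.

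Another 10 genes (3.19%) were developmental regulators outside the homeobox family, against 5.44% for genes of regions linked to expressed genes and 2.04% for silent genes at 68 weeks. Bhlhe23, a neuronal helix-loop-helix factor, had the highest score with 7.25 and no RNA count in any library. Nr5a1, the steroidogenic factor of adrenal and gonad, had 2 regions with a top score of 6.19 and 2 counts in all. Tbr1, a factor of cortical neurons, reached 5.24, and Prdm12, required for pain-sensing neurons, reached 5.17 with no count. Signalling genes of development were 7 (2.24%), against 3.35% of the genes of regions linked to expressed genes and 0.954% of the silent genes at 68 weeks. Among them were Wnt8b with a top score of 6.23, the Wnt inhibitor Dkk1 with 4.58, Shh with 4.32 and Ihh with 4.29.

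Ion channels were 10 of the 313 genes (3.19%), against 2.59% of the silent genes at 68 weeks and 2.09% of the genes of regions linked to expressed genes. Kcnip1 had the highest score of them with 7.55, Best2 reached 5.83, the cation channel Trpc4 5.60 and the potassium channel subunit Kcnv1 5.10. The neurotransmitter set held 6 genes (1.92%, against 1.77% of the silent genes at 68 weeks and 0 genes of regions linked to expressed genes), the somatostatin receptor Sstr1 leading with 5.48. Axon guidance and synapse genes were 4 (1.28%), against 1.36% of silent genes at 68 weeks and 5.86% of genes of regions linked to expressed genes. Lrrtm1 and Ctnna2 shared a region with 6.86. The hair-follicle protein Tchh had a score of 7.54 and Krt87, a hair keratin, 7.0. Olfactory, vomeronasal and taste receptors were 5.12% of all silent genes and 1 of the linked genes (Olfr94, 0.319%), and antigen receptor segments were 1.92% of all silent genes and 0 of the linked ones. None of these family shares was tested.

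**Figure D2:**
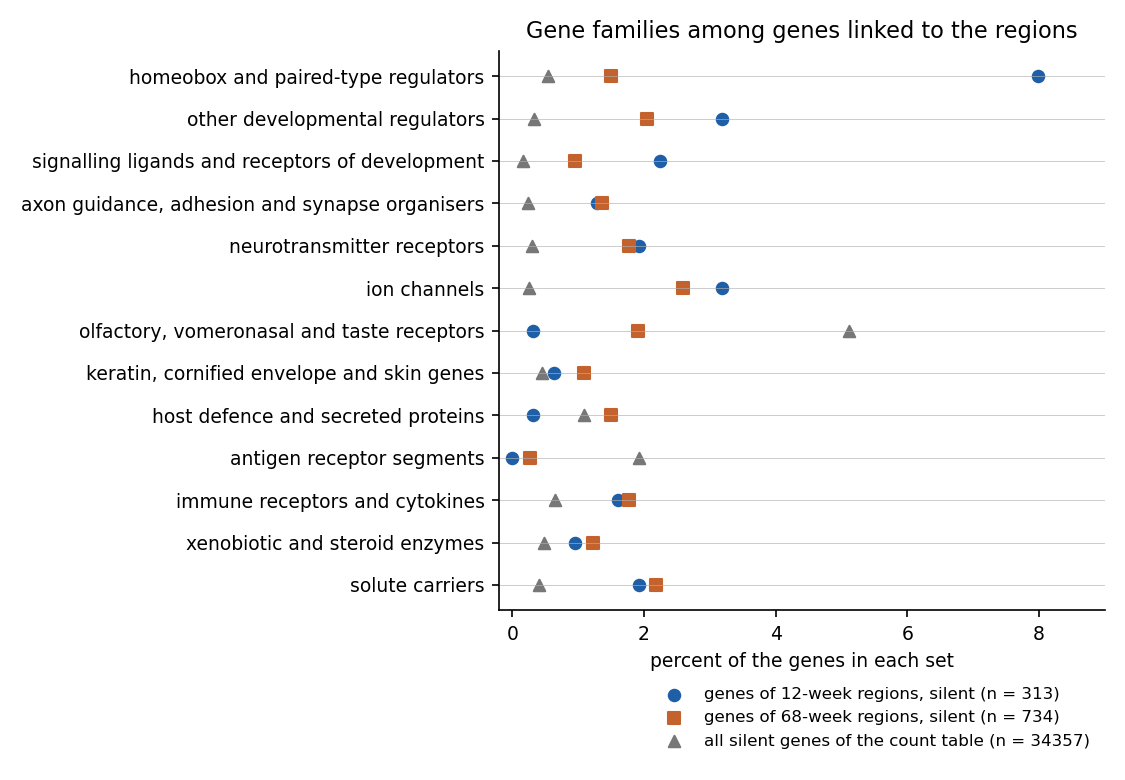
Percent of genes in each family among the silent genes linked at 12 weeks (circles), those linked at 68 weeks (squares) and all silent genes of the count table (triangles). Homeobox genes make up 7.99%, 1.5% and 0.533% of the 3 sets, and olfactory, vomeronasal and taste receptors 0.319%, 1.91% and 5.12%.

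The 68-week list was compared by position and by linked gene. No member overlapped a 68-week region. The same held for all 303 regions linked to expressed genes and all 495 without a gene, so this is not particular to the members. Within 10 kb there was one for 28 members (7.65%), within 50 kb for 124 (33.9%) and within 100 kb for 194 (53.0%), with a median distance of 90.6 kb. Regions linked to expressed genes had 5.94%, 17.5% and 32.0% at the same distances and a median of 235 kb. Without the 3 largest groups the members' median distance was 82.0 kb. A region of the glucose transporter gene Slc2a7 lay 905 bases from a 68-week region, and a Plch2 region 3098 bases from one. Among developmental genes, members at Onecut1, Lmx1b, Wnt6, Lhx5 and Ihh had a 68-week region within 10 kb.

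By gene, 55 of the 313 silent genes (17.6%) were also linked to a 68-week region, which is 4.32% of the 1274 genes linked there. For regions linked to expressed genes the share was 32 of 239 (13.4%). Of the 25 homeobox genes 4 were linked at both ages. Lmx1b, which patterns limbs and dopamine neurons, had 2 regions at 12 weeks and 3 at 68 weeks, and Pax7, Onecut1 and Pax8 were the others. The lists hold 1164 and 3433 regions, and 1 list per age gives no replicate error, so a gene in 1 list only is not shown to have lost or gained the mark.

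Of the 313 linked genes, 24 were not in the count table and were counted as 0, 65 had no count in any of the 8 libraries and 78 had a count in all 8. For a gene at 0 in a library, the limit set by 3 counts was 0.0867 to 0.127 CPM. A mean under 0.1 CPM was seen for 193 genes and 0.1 or more for 96. At 1 age alone, 10 of the linked genes reached a mean of 0.5 CPM: Cfap57, Prr36, Tcte1, Cfap77, Plch2 and Cacna1i at 12 weeks, and Kcnip1, Cyp46a1, Jph3 and Foxd2os at 68 weeks. Just under the level of 0.5 CPM over both ages were the regions of Nrip3 (0.470), Kcnip1 (0.471) and Prr36 (0.498). Just over it were a region of 1810024B03Rik (0.510) and 2 of Irx3os (0.518).

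The libraries totalled 23599296 to 34599121 counts. Cardiomyocyte markers summed to 47600 to 53900 CPM at 12 weeks and to 54200 to 57800 at 68 weeks, and the ages did not overlap. The 20 airway epithelium markers varied widely and not with age alone: they summed to 1860, 983, 573 and 28.9 CPM at 12 weeks and to 2.26, 2.11, 1100 and 1.47 at 68 weeks, and 13 of the 20, among them Foxj1 of ciliated cells and Scgb1a1 of club cells, had 0 counts in at least 1 library. Adipocyte markers summed to 318 to 704 CPM at 12 weeks and 39.8 to 181 at 68 weeks, with 4 of 7 lower by edgeR, and B cell markers to 2.79 to 10.5 and 1.11 to 2.16, with 3 of 5 lower. T cell markers summed to 1.85 to 2.5 CPM at 12 weeks and 1.16 to 1.6 at 68 weeks, with 1 of the 2 tested lower. Neutrophil markers summed to 112, 66.8, 49.7 and 6.53 CPM at 12 weeks and to 2.55, 1.39, 162 and 1.45 at 68 weeks, so they were high in the same 4 libraries as the airway markers. The part of these cell types in the age results was not tested. The summed RNA of the linked genes was 37.3, 23.7, 29.1 and 20.6 CPM at 12 weeks and 23.3, 23.6, 35.3 and 22.8 at 68 weeks. In bulk tissue, fewer cells of a type and less RNA per cell cannot be told apart.

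Enough counts for the age test (edgeR's quasi-likelihood test, Benjamini-Hochberg adjusted p under 0.05 over all 15947 genes tested) were present for 20 linked genes. Of these, 2 rose at 68 weeks, Cdkn2a and Kcnip1, and 0 fell; 2.83% of all genes tested were called in either direction, 1.61% higher and 1.22% lower. At an unadjusted p under 0.05, 4 of the 20 were higher and 0 lower by edgeR. Of all 15947 genes tested, 3034 had such a p in either direction, a similar share. DESeq2 also called 2 higher and 0 lower. Among all 996 tested genes with a mean under 0.5 CPM, 1.00% were called. The median log2 fold change of the 20 was 0.13, against -0.01 for all genes tested. The 20 passed the count filter, so they do not stand for all 313. Cdkn2a had at most 3 counts and Kcnip1 at most 7 in any 12-week library, so both passed the filter through the 68-week libraries. The members were also capped at a mean of 0.5 CPM over these libraries, so the share over all genes tested is not a like comparison. The 996 genes share that cap.

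Cdkn2a encodes p16Ink4a and p19Arf, an inhibitor of cyclin-dependent kinases and an activator of p53. Its counts were 3, 3, 2 and 3 at 12 weeks and 19, 12, 14 and 12 at 68 weeks, and each 68-week library lay above each 12-week library. In CPM it rose from 0.0995 ± 0.0120 to 0.459 ± 0.117 (SD, n = 4 libraries per age). The SD at 12 weeks was smaller than counting error alone gives for counts of 2 or 3, so it understates the error. The log2 fold change was 2.21 ± 0.31 (SE, edgeR, adjusted p = 0.00907). The SE depended on the tool, and by DESeq2 the value was 2.27 ± 0.62 (adjusted p = 0.00807), so the edgeR SE may be too small. The 11 counts at 12 weeks against 57 at 68 weeks gave a ratio, after division by the summed library totals, of 4.56. Its exact 95% interval was 2.37 to 9.65 for counting error only. On the log2 scale this interval is wider than a 95% interval from the edgeR SE would be, so the edgeR SE is too small. The counts are per gene, so the 2 products cannot be told apart.

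Kcnip1, a calcium-binding subunit of Kv4 potassium channels, rose as well. It had 7, 7, 6 and 7 counts at 12 weeks and 20, 22, 20 and 25 at 68 weeks, again with no overlap. In CPM it rose from 0.246 ± 0.0168 to 0.695 ± 0.0571 (SD, n = 4 libraries per age). Both SDs were smaller than counting error alone gives for counts this low, so they understate the error. The log2 fold change was 1.55 ± 0.22 (SE, edgeR, adjusted p = 0.00927). By DESeq2 it was 1.57 ± 0.43 (SE, adjusted p = 0.00807). The 27 counts at 12 weeks against 87 at 68 weeks gave a ratio, after division by the summed library totals, of 2.84. Its exact 95% interval was 1.82 to 4.55 for counting error only. On the log2 scale this too is wider than a 95% interval from the edgeR SE would be, so that SE is too small. Kcnmb1, a smooth muscle potassium channel subunit that lies on the opposite strand within the span of Kcnip1, shared 0 exon bases with it and stood at -0.54 ± 0.23 on the log2 scale (SE, edgeR, adjusted p = 0.245). Kcnip1 was near the level that chose the members, with a mean of 0.471 CPM over both ages.

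Airway markers differed between libraries, and the 2 genes were therefore read beside them. Cdkn2a had, in the 3 airway-rich 12-week libraries, 0.0947, 0.110 and 0.0847 CPM, and 0.449 in the airway-rich 68-week library. In the other 12-week library it had 0.109, and in the other 3 at 68 weeks 0.622, 0.416 and 0.347. With the summed airway level in the edgeR model, its log2 fold change was 2.17 ± 0.43 (adjusted p = 0.0914) and that of Kcnip1 1.43 ± 0.29 (adjusted p = 0.0983). Neither was called in that fit, and the part of airway content in the age difference was not tested. Without the airway-rich 68-week library the values were 2.23 (adjusted p = 0.0246) and 1.59 (adjusted p = 0.0214) by edgeR. The airway markers then summed to 28.9 to 1860 CPM at 12 weeks and to 1.47 to 2.26 at 68 weeks. Airway level and age cannot be told apart in that fit.

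**Figure D3:**
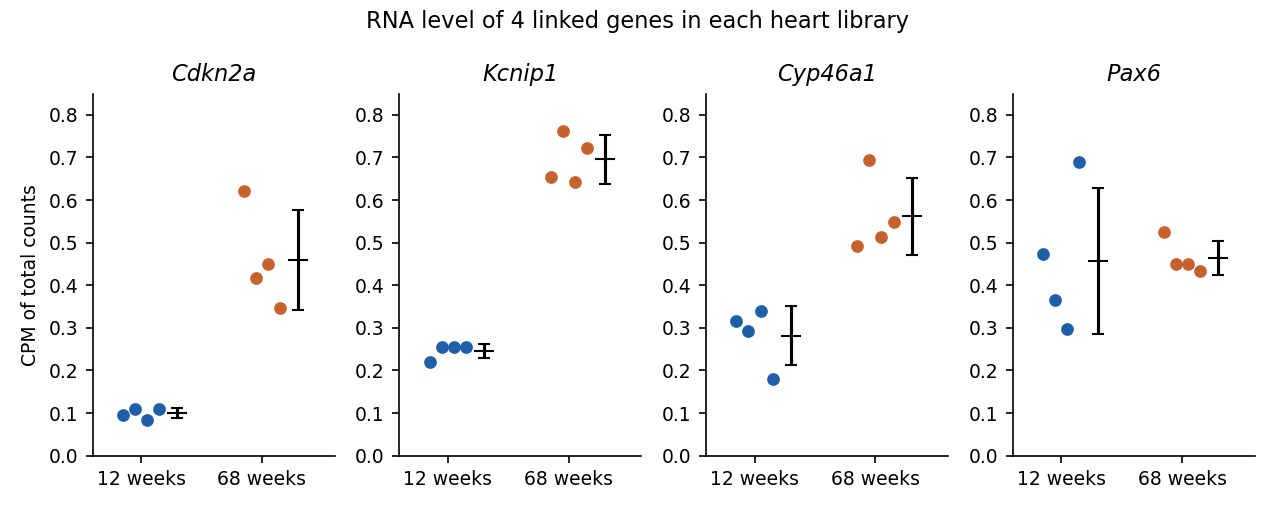
CPM of 4 linked genes in each RNA library (points; 4 libraries per age) with the mean and SD (bar). Cdkn2a, Kcnip1 and Cyp46a1 do not overlap between ages, the first 2 being called, while Pax6 overlaps with means of 0.456 and 0.464 CPM.

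A further gene separated by age without being called. Cyp46a1, the cholesterol 24-hydroxylase of neurons, had 0.316, 0.292, 0.339 and 0.181 CPM at 12 weeks. At 68 weeks it had 0.491, 0.693, 0.514 and 0.549, with no overlap. The log2 fold change was 1.05 ± 0.26 (SE, edgeR, adjusted p = 0.0702). By DESeq2 it was 1.07 ± 0.45 (SE, adjusted p = 0.156). Over all alternatives, by edgeR or DESeq2, its adjusted p ran from 0.0818 to 0.353. It had 10, 8, 8 and 5 counts at 12 weeks, so it too passed the count filter through the 68-week libraries. Thus 3 of the 20 tested genes had ages that did not overlap, against 12.6% of all genes tested. The count filter and the cap on the members' level bear on this share too, so it is not a like comparison.

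The other tested genes overlapped between ages. The noncoding Foxd2os stood at 0.66 ± 0.29 on the log2 scale (edgeR, adjusted p = 0.246, not called), and the sources used here do not say whether counting used strand. Jph3, a junctophilin of neurons, had 0.51 ± 0.27, Sarm1, an axon degeneration enzyme, 0.46 ± 0.41, the meiotic protein Sycp2 0.39 ± 0.47 and Prrt3 0.20 ± 0.27. Prr36 had -0.49 ± 0.28. Pax6, the only homeobox gene tested, had 15, 10, 7 and 19 counts at 12 weeks and 16, 13, 14 and 15 at 68 weeks, a log2 fold change of 0.07 ± 0.28.

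The remaining 3 of the named genes followed the airway markers across libraries. Cfap57, a cilium component, had 36, 16, 16 and 0 counts at 12 weeks and 1, 0, 30 and 2 at 68 weeks. Tcte1, a flagellar protein of the dynein regulatory complex, had 31, 20, 9 and 1, then 0, 0, 15 and 0. Plch2, a phospholipase C, had 37, 13, 13 and 1, then 6, 7, 26 and 0. Each was high in the same 3 libraries at 12 weeks and the same 1 at 68 weeks in which the airway markers were high. Their log2 fold changes by edgeR were -1.12 ± 1.1, -2.07 ± 1.1 and -0.77 ± 0.90 and none was called. The part of airway cells in these counts was not tested. Over 9 linked genes of cilia and flagella, a list drawn up after the values were seen, counts summed to 205, 85, 53 and 16 at 12 weeks and to 12, 12, 103 and 5 at 68 weeks.

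**Figure D4:**
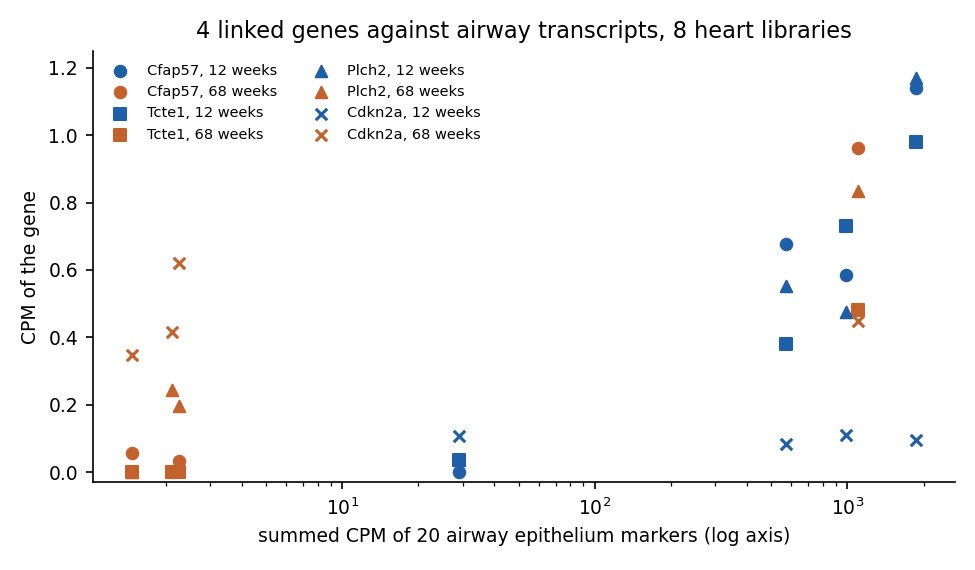
CPM of Cfap57, Tcte1, Plch2 and Cdkn2a in each of the 8 RNA libraries (points, coloured by age) against the summed CPM of 20 airway epithelium markers on a log axis. The first 3 genes are highest in the 4 libraries with 573 CPM or more of airway markers, while Cdkn2a is 0.0847 to 0.110 CPM in all 12-week libraries and 0.347 to 0.622 in all 68-week libraries.

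At the Cdkn2a locus 3 members stood in a row. The region linked to Cdkn2a (chr4:89205847-89206061) was 215 bases wide and scored 4.59, near the members' median. A Gm12606 region (chr4:89188951-89189171) scored 4.66 and a Gm12610 region (chr4:89222132-89222362) scored 4.65. Beyond them, at 20.5 and 21.4 kb from the Cdkn2a region, lay 2 regions linked to Gm12610 and to Cdkn2b, the neighbouring inhibitor of cyclin-dependent kinases, with scores of 4.51 and 6.55. Cdkn2b was expressed, so these 2 were not members. In the 68-week list the 1 region within 100 kb was linked to Gm12606 and scored 4.48 (chr4:89171808-89172014), its start 34.0 kb before that of the Cdkn2a region.

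Cdkn2b had 27, 19, 13 and 18 counts at 12 weeks and 28, 17, 22 and 29 at 68 weeks, and the ages overlapped. Its log2 fold change was 0.20 ± 0.22 (SE, edgeR, adjusted p = 0.657). Gm12606 and Gm12610, named here for their place beside Cdkn2a, had 0 counts in all 8 libraries. The Kcnip1 region (chr11:33728835-33729125) was 291 bases wide with a score of 7.55, and no region of the 68-week list lay within 100 kb of it. Whether H3K27me3 itself changed at either gene was not tested, since each age has 1 list with no per-library values.

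**Figure D5:**
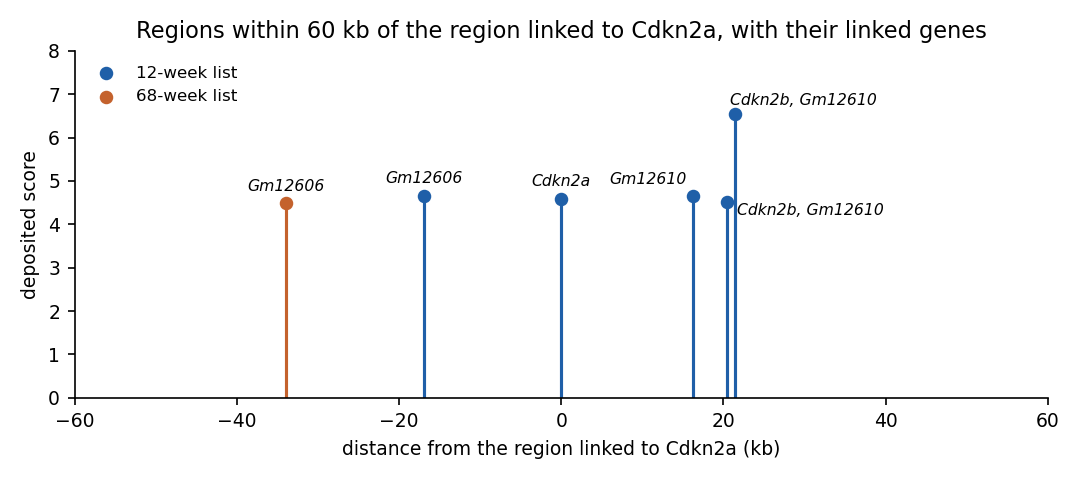
Regions of both lists near the region linked to Cdkn2a, by distance from its start in kb (x axis) and deposited score (y axis), each with its linked genes. The 12-week list has 5 regions between -16.9 and 21.4 kb scoring 4.51 to 6.55, and the 68-week list has 1 at -34.0 kb scoring 4.48.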

How the data were processed

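RNA-seq counts per gene were deposited by the authors for 8 libraries. The submitters' processing notes name MACS3 3.0.0b1, Picard 2.26.2, SAMtools 1.14, Bowtie2 2.4.2 and Trim Galore 0.6.5, besides Subread 1.5.2 with featureCounts, STAR 2.5.2b and Trimmomatic 0.36, and the build mm10; roles and settings are not given in the sources used here. H3K27me3 regions came as 1 list per age compiled by the authors, with a deposited score per region (called enrichment, scale not stated), a width in bases and linked genes; how replicates were pooled and genes linked is not given in the sources used here.

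From these, 1 region per distinct name was kept and CPM was computed on total counts. Age was tested with edgeR 4.0.16 (quasi-likelihood, TMM, its default count filter, Benjamini-Hochberg over 15947 genes) in R 4.3.3, with DESeq2 1.42.0 as an alternative. On simulated counts of 15711 genes for this comparison, 77% of 2-fold and 94% of 4-fold changes were recovered and 8.06% of calls were false. The changed genes were drawn from genes of all levels, and only 996 of the 15947 genes tested had a mean under 0.5 CPM. The rates therefore do not give the recovery for the linked genes, which all lay under that level. Taken over many genes at once, no 2 libraries of an age agreed within sampling noise (lowest chi-square per degree of freedom 15.7). This does not give the spread of any 1 gene. The age test rests on the spread between libraries, while intervals on counts cover counting error only. Alternatives changed the scaling, the filter, the tool, the libraries, the silent level and the distance.

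The members and gene lists were chosen with earlier results of these data known. Named were the 10 regions of highest score, the 5 genes with most regions, called genes and 10 more tested genes by p, up to 4 genes per family by score, and the 3 regions on each side of 0.5 CPM. No sequence of the regions was used, since no genome of their build was at hand.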

Additional observations from a re-analysis of the deposited data

Results flagged for a closer look

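In 30 groups of 4 libraries, 8 had 1 library far from the other 3 by Dixon's test at the 95% level, where chance gives about 1 in 20. Of the 8, 4 were the 68-week replicate 3: it had 1100 CPM of airway markers against 1.47 to 2.26 in the others, 0.482 CPM of Tcte1 against 0, and 0.963 CPM of Cfap57 against 0 to 0.0578. It also had the highest summed CPM of the linked genes at that age, 35.3 against 22.8 to 23.6. At 12 weeks, replicate 1 had 173 linked genes with a count against 140 to 144, and it had 0.221 CPM of Kcnip1 against 0.254 to 0.256. Its Kcnip1 count was 7 and the others had 7, 6 and 7, so this flag came from dividing small whole counts by library totals. At 12 weeks, replicate 3 was low in Jph3, with 0.254 CPM against 0.435 to 0.442, and in Prrt3, with 0.254 against 0.379 to 0.402. Replicate 3 was the shallowest library of its age.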

How the results depend on the processing

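Of the linked genes, 2 were higher and 0 lower at 68 weeks with library-size scaling, without the count filter, by DESeq2 and without any 1 library (2 higher and 0 lower in each of the 8 fits). The count fell to 1 with a replicate block and to 0 with airway markers in the model. No pairing by replicate number was seen: correlations of same-numbered libraries were -0.254, -0.0654, 0.0689 and 0.351, and none correlated best with its own number. These correlations do not exclude a pairing, and the labels do not state whether there was any. With the replicate block Cdkn2a was called (2.21, adjusted p = 0.0485, edgeR) and Kcnip1 was not (1.54, adjusted p = 0.0553, edgeR); the cause was not tested. Leaving out a library gave log2 fold changes of 2.03 to 2.32 for Cdkn2a (adjusted p = 0.0190 to 0.0376, edgeR) and 1.47 to 1.59 for Kcnip1 (0.0214 to 0.0367). Tcte1 was -6.95 and Cfap57 -4.01 without 68-week replicate 3, neither called. Leaving out a library gave 0.17 to 0.70 for Sarm1, 0.09 to 0.66 for Sycp2, 0.03 to 0.32 for Prrt3 and -1.90 to -0.12 for Plch2, none called. With airway markers in the model, Cfap57 (0.51), Plch2 (0.69) and Sycp2 (-0.15) changed sign, uncalled in either fit.

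A silent level of 0.1 CPM gave 258 regions, 1 CPM gave 422, the 12-week libraries alone 364 (360 of them shared), TMM-scaled totals 366 and leaving out genes absent from the counts 347. Restricted to the upper 50% of the list by score, 177 regions remained, with a median score of 5.47 and a median width of 287.0 bases. The count of members near a 68-week region was 28 within 10 kb, 0 by overlap, 124 within 50 kb and 194 within 100 kb; without the 3 largest groups, an alternative chosen after seeing the data, it was 27. Matching by symbol also gave 55 shared genes. Most linked genes had too few counts to show an age difference at this depth.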
